A study of Homo sapiens with 2 samples.

Results

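The BCL2 family of mitochondrial apoptosis regulators was examined in L-540, an established Hodgkin lymphoma cell line that is usually assigned to the T-cell lineage. The 10 members were taken by gene symbol from the array platform's annotation: the death-blocking genes BCL2, BCL2L1, MCL1 and BCL2A1, and the death-promoting genes BAX, BAK1, BID, BCL2L11, BBC3 and PMAIP1. Of 11963 genes named by a single symbol, 9 were members, with 22 of the 22215 non-control probe sets. BBC3 was represented only by 1 probe set that carries microRNA symbols as well, so it has no value here. The series compared 1 culture of L-540 cells given vorinostat, a hydroxamate inhibitor of histone deacetylases, with 1 culture of the same line given no treatment, each on 1 Affymetrix HG_U133A array. Neither a dose nor a duration was given in the labels, both cultures were grown under standard conditions, and no other agent or genetic change was named. With 1 array per group there is no replicate error, no test was possible, and each ratio describes these 2 arrays only.

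Proteins of the BCL2 family decide whether the outer mitochondrial membrane stays intact. BAX and BAK1 are the effectors that form pores in it and let cytochrome c out, BH3-only proteins such as BID, BCL2L11 (BIM), BBC3 (PUMA) and PMAIP1 (NOXA) set them off, and BCL2, BCL2L1 (BCL-XL), MCL1 and BCL2A1 (A1) hold both kinds in check. In Hodgkin cells, NF-kB and STAT signals are known to feed the death-blocking genes, and loss of the balance between the groups is a known route by which histone deacetylase inhibitors kill lymphoid cells.

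The values are MAS5 signals, linear intensities that summarise the probes of a probe set. A signal of 68.9, which is the 40th percentile over both arrays without control probe sets, served as a floor: lower signals were set to it before log2 was taken, a probe set under it on both arrays counted as not measured, and one under it on 1 array gave a bound. Where a gene had several measured probe sets, the brightest by mean log2 signal stood for it, and 2-fold was used as a rule of size. The trimmed mean signal was 499.9 on each array, and 58.8% of probe sets were above the floor in vorinostat cells and 61.2% in untreated cells. The 3' to 5' ratio of the ACTB control was 1.24 in vorinostat cells and 1.06 in untreated cells, and that of GAPDH was 0.850 and 0.856; their part in the ratios below was not tested. TNFRSF8, the gene of the Hodgkin cell antigen CD30, had signals of 3228 in vorinostat cells and 10777 in untreated cells, so the defining marker of the line was present in both. Of 5 Hodgkin cell markers, 4 were above the floor on each array, with a summed signal of 21347 in vorinostat cells and 30226 in untreated cells, and CCL17 was under it on both. Of 5 T and NK cell markers, 2 were above the floor in vorinostat cells and 3 in untreated cells, with sums of 1311 and 4982, and CD3D and CD8A were under it on both. Of 4 B cell markers with a probe set of their own, 1 was above the floor on each array (sums of 222 in vorinostat cells and 406 in untreated cells), and MS4A1, CD79A and CD79B were under it on both. Markers of monocytes and granulocytes were summed at 173 in vorinostat cells and 269 in untreated cells, with 2 of 4 above the floor on each and CD14 and LYZ under it. Epithelial markers were summed at 220.4 and 162 (2 of 4 above the floor in vorinostat cells and 1 of 4 in untreated cells, EPCAM and CDH1 under it), and those of fibroblasts and endothelium at 424 and 432 (2 of 4 on each, VWF under it). The part of these marker differences in the results below was not tested.

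Of the 10 members, 7 were measured. At least 2-fold lower in vorinostat cells were 2 of them, the effector gene BAX and the death-blocking gene BCL2L1, where 5.12% of all 8277 measured genes were. Members at least 2-fold higher numbered 0, where 3.77% of all measured genes were. The other 5 lay within 2-fold. The median log2 ratio, vorinostat over untreated, was -0.46 over the 3 measured death-blocking members and -0.27 over the 4 measured death-promoting ones, against -0.04 over all measured genes. Without probe sets whose suffix marks shared sequence, BAK1 alone was left of the death-promoting members, at 0.38. With the floor set at the 25th or the 60th percentile instead, the death-promoting median was -0.01. Both groups held members on each side of 0, and on so few genes these medians do not tell the groups apart. In whole-culture RNA, fewer cells that express a gene and less RNA per cell cannot be told apart.

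At the level of probe sets, 18 of the 22 were measured and 16 of them lay above the floor on both arrays. Of the 18, 6 were at least 2-fold lower in vorinostat cells, against 5.47% of all 14194 measured probe sets, and 1 was at least 2-fold higher, against 3.65%. Probe sets of a gene share its transcripts and the same 2 RNA samples, so they are repeat readings and not replicates. Over the 2746 genes with at least 2 measured probe sets, log2 ratios of probe sets to the same gene differed with a pooled SD of 0.33, which is the repeat error used below and leaves out all variation between cultures.

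**Figure D1:**
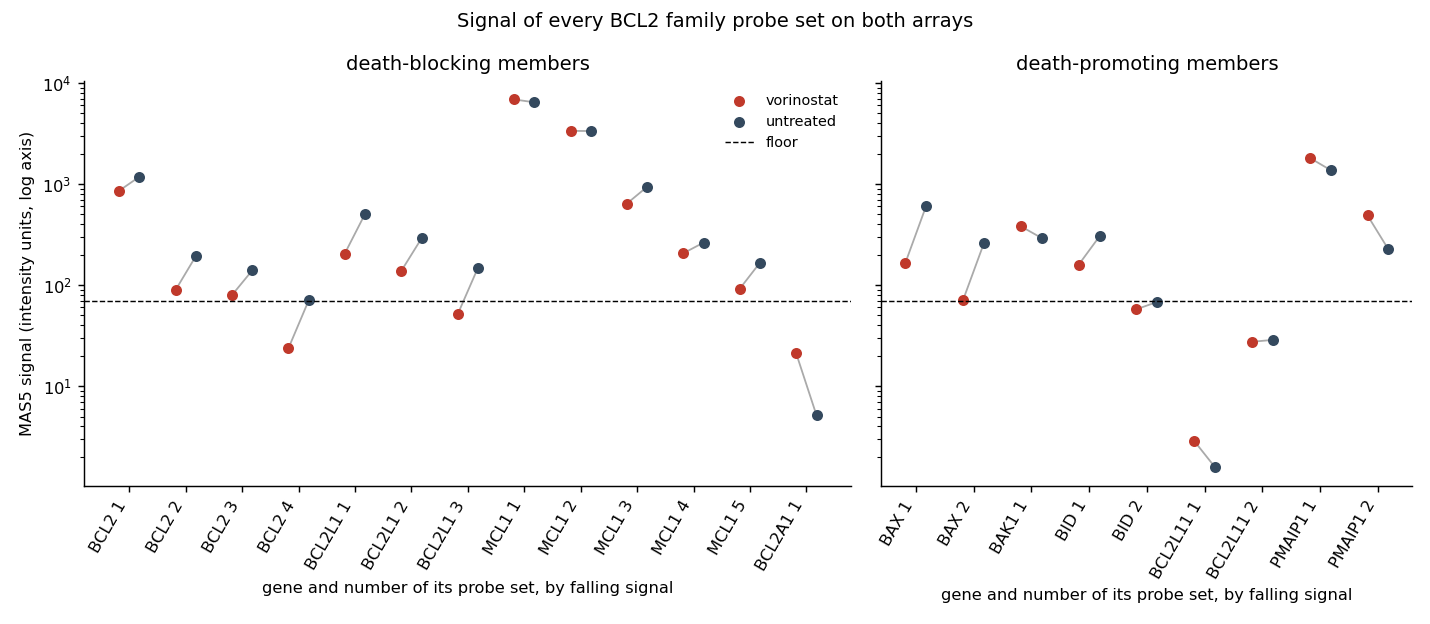
MAS5 signal (intensity units, log axis) of the 22 member probe sets in vorinostat cells (red, left of each pair) and untreated cells (dark, right), with death-blocking members in the left panel and death-promoting members in the right; the dashed line is the floor of 68.9. Every probe set of BCL2, BCL2L1 and BAX is lower in vorinostat cells, both of PMAIP1 are higher, and the probe sets of MCL1 differ among themselves.

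Among the death-blocking members, BCL2L1, which encodes BCL-XL, was lower on every probe set. Its brightest probe set, 212312_at, had a signal of 205 in vorinostat cells, against 507 in untreated cells (2.47-fold lower, a log2 ratio of -1.31). The second, 215037_s_at, had 138 in vorinostat cells and 290 in untreated cells (2.10-fold lower). On the dimmest, 206665_s_at, the signal of 51.3 in vorinostat cells was under the floor, against 148 in untreated cells, which makes it at least 2.15-fold lower. The last is a bound, so the spread of the 3 readings is not known. Of 682 genes with 3 measured probe sets, 16 had each of them at least 2-fold lower. Among measured genes, 191 of 8277 had a ratio as low as that of BCL2L1 or lower.

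BCL2, the founding member of the family and a death blocker at mitochondria and the endoplasmic reticulum, was lower on each of its 4 probe sets, but by unequal amounts. The brightest, 203685_at, had 857 signal units in vorinostat cells and 1179 in untreated cells (1.38-fold lower). The next, 207005_s_at, had 89.1 in vorinostat cells and 193 in untreated cells (2.17-fold lower), and 207004_at had 79.5 and 140 (1.76-fold lower). On 203684_s_at the signal was 23.6 in vorinostat cells and 70.4 in untreated cells, and since the floor lies just under 70.4 this probe set gives only a bound of -0.03 in log2 ratio. BCL2 therefore stayed within 2-fold by its brightest probe set, with a median log2 ratio of -0.64 over all 4. The probe sets with log2 ratios of -1.12 and -0.81 had signals 1.29 and 1.15 times the floor in vorinostat cells.

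MCL1, a short-lived death blocker whose transcript and protein turn over rapidly, gave no common direction. The 2 brightest probe sets were nearly equal between the arrays: 200797_s_at had 6863 in vorinostat cells and 6426 in untreated cells (a log2 ratio of 0.09), and 200798_x_at had 3352 and 3341 (a log2 ratio below 0.01). The other 3 were lower in vorinostat cells. On 200796_s_at the signal was 640.0 in vorinostat cells, against 940.0 in untreated cells (1.47-fold lower), on 214056_at it was 206 against 263 (1.28-fold lower), and on 214057_at 92.0 against 167 (1.82-fold lower). The median over the 5 was -0.35, so the direction assigned to MCL1 depends on how its probe sets are combined. Their range of 0.95 was reached or passed by 7 of the 48 genes with 5 measured probe sets. Over all 2746 genes with several measured probe sets, the dimmest had the lower ratio in 52.6%, with a median difference from the brightest of -0.02.

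BCL2A1, an NF-kB target that blocks death in activated lymphocytes, was under the floor in both cultures on its single probe set, 205681_at, with signals of 21.0 in vorinostat cells and 5.13 in untreated cells. Neither value can be ordered at this level, and no ratio is given.

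Of the effectors, BAX had the lowest ratio in the family. Probe set 211833_s_at had a signal of 167 in vorinostat cells, against 610.3 in untreated cells (3.66-fold lower, a log2 ratio of -1.87). The second, 208478_s_at, had 71.7 in vorinostat cells and 261 in untreated cells (3.64-fold lower, a log2 ratio of -1.86). The 2 readings thus differed by 0.01 on the log2 scale, with the dimmer one just above the floor in vorinostat cells. Of 8277 measured genes, 35 had a ratio as low as that of BAX or lower. Of the 1760 genes with 2 measured probe sets, 3, BAX among them, had both at least 1.8 log2 units lower, and 52 had both at least 2-fold lower. The cut of 1.8 lies just under the values of BAX itself, so that count is a description and not a test. Both BAX probe sets carry a suffix that marks sequence shared between transcripts or genes, so the annotation alone does not assure that they read BAX only.

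BAK1, the other effector, did not share that difference. Its probe set 203728_at had 380.3 in vorinostat cells and 291 in untreated cells (1.30-fold higher, a log2 ratio of 0.38), and 1762 of 8277 measured genes had a ratio as high or higher. The log2 ratio of BAX minus that of BAK1 was -2.26, and that of BAX minus that of BCL2L1 was -0.57.

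**Figure D2:**
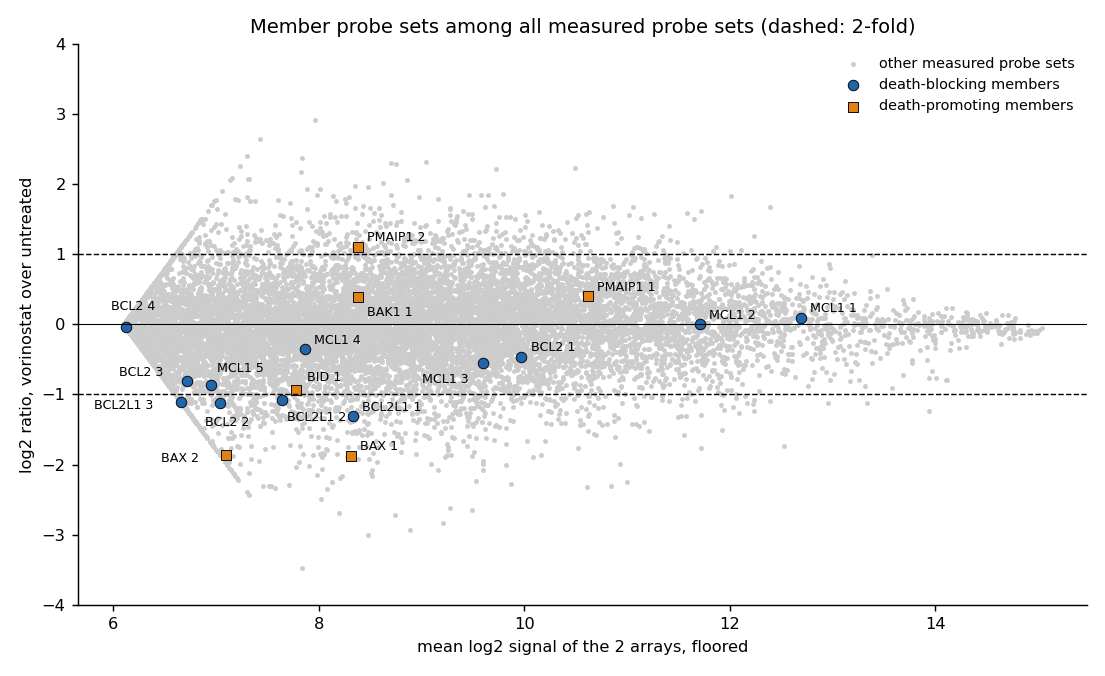
Log2 ratio of signal, vorinostat over untreated, against the mean log2 signal of the arrays for the 14194 measured probe sets (grey), with death-blocking members as blue circles and death-promoting members as orange squares, numbered by falling signal within a gene; dashed lines mark 2-fold, and the slanted edges at the left are bounds set by the floor. Both BAX probe sets lie at -1.87 and -1.86, the BCL2L1 probe sets between -1.31 and -1.07, and the bright MCL1 probe sets near 0.

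The shares past 2-fold varied with signal. In the middle of 3 equal parts of the measured probe sets by mean signal, between 192 and 695 units, 7.02% were at least 2-fold lower and 4.86% at least 2-fold higher. This part holds the brightest probe sets of BAX, BAK1, BCL2L1 and BID and the dimmer one of PMAIP1. It also holds 215037_s_at of BCL2L1 and 214056_at of MCL1. In the dimmest part 5.6% were at least 2-fold lower, and in the brightest 3.78%.

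Among the BH3-only members, PMAIP1, which encodes the MCL1-binding protein NOXA, was higher in vorinostat cells on both probe sets. The brighter, 204285_s_at, had 1812 in vorinostat cells and 1373 in untreated cells (1.32-fold higher, a log2 ratio of 0.40). The dimmer, 204286_s_at, had 488 in vorinostat cells and 226 in untreated cells (2.16-fold higher, a log2 ratio of 1.11). The 2 readings share a direction and differ by 0.71 on the log2 scale. The pooled SD of 0.33 is that of 1 reading, and a difference between 2 readings spreads more widely. The dimmer lies past 2-fold and the brighter within it, so the size of the difference is not settled. The median of 0.76 is also short of 2-fold. Both probe sets carry the suffix for shared sequence.

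BID, which caspase-8 cleaves to carry a death receptor signal to mitochondria, had 159 in vorinostat cells and 303 in untreated cells on 211725_s_at (1.91-fold lower, a log2 ratio of -0.93), just inside 2-fold. Its other probe set, 204493_at, was under the floor on both arrays, at 57.6 in vorinostat cells and 68.1 in untreated cells. Only 1 reading of BID was therefore measured, and it carries the suffix for shared sequence.

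BCL2L11, which encodes BIM, the BH3-only protein that removes lymphocytes deprived of cytokine, was under the floor on both probe sets in both cultures. Signals were 27.5 in vorinostat cells and 28.6 in untreated cells on 222343_at, and 2.86 and 1.57 on 208536_s_at. No difference was detectable at these signals, which does not show that the gene was silent.

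Promoters of 9 members, all but MCL1, were matched by symbol in RefSeq (GRCh38.p14), and the 250 bases before the annotated start are shown for the 2 genes at least 2-fold lower and for PMAIP1, the member higher on both of its probe sets, to set members that lay on opposite sides of 0 side by side. Capitals mark matches, on either strand, to the GC box GGGCGG, the CCAAT box CCAAT, the CRE half-site TGACG, the E-box CACGTG, the TATA box TATAAA and the p53 half-site consensus, some of which overlap. BAX lies on chr19:48954625-48954874, plus strand. BCL2L1 is shown at its outermost start, chr20:31723964-31724213, minus strand, and PMAIP1 at chr18:59899746-59899995, plus strand. Each is written 5′ to 3′ along the gene.
BAX: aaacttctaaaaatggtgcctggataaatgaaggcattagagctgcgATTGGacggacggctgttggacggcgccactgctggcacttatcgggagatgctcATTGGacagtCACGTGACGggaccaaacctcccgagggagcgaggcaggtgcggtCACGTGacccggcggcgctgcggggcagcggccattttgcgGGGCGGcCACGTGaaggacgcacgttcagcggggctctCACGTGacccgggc
BCL2L1: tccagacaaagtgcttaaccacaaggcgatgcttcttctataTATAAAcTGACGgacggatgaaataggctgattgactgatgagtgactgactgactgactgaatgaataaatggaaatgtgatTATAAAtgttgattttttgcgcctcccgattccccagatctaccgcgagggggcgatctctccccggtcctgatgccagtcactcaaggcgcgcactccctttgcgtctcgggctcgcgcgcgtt
PMAIP1: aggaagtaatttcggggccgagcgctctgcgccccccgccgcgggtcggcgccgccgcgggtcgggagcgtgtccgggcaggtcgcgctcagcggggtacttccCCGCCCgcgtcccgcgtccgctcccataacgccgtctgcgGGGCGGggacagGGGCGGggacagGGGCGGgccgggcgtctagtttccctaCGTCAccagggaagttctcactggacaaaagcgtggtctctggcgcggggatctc

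The BAX window held 4 E-boxes, 2 CCAAT boxes, 1 GC box and 1 CRE half-site, which overlaps an E-box. Of 35116 promoter windows of the same length, 6.34% held an E-box and 5 windows (0.0142%) held 4 or more. The BCL2L1 window held 2 TATA boxes and 1 CRE half-site, where 10.7% of windows held a TATA box, 2.05% held 2 or more and 21.2% held a CRE half-site. A second BCL2L1 window, at chr20:31722869-31723118, held 0 of these motifs. The PMAIP1 window held 4 GC boxes and 1 CRE half-site. A GC box was present in 42.6% of windows (4 or more in 7.63%) and a CCAAT box in 32.0%. The cuts of 4 E-boxes, 2 TATA boxes and 4 GC boxes are the counts in the shown windows themselves. The shares past them are therefore descriptions and not tests. The p53 half-site was found in 5.57% of windows and in 0 of these 3. Among members not shown, the BAK1 window held 1 p53 half-site. E-boxes were also present in the BBC3 window and in some of the BID windows. The G and C content was 62.8% for BAX, 50% for BCL2L1 and 72.8% for PMAIP1, with 25, 17 and 36 CpG, against medians of 58.0% and 11 over all windows. Such matches describe the sequence and do not show that a factor bound there.

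The remaining genes of the pathway were read through 5 lists, against 5.12% of all measured genes at least 2-fold lower, 3.77% at least 2-fold higher and a median log2 ratio of -0.04. In the list of other BCL2 family and BH3 proteins, 10 of 12 genes had a probe set of their own and 5 were measured, with 0 at least 2-fold apart in either direction and a median log2 ratio of 0.14. BCL2L14 had 105 in vorinostat cells and 89.3 in untreated cells (log2 ratio 0.23). BCL2L2, the death blocker BCL-W, had 417 in vorinostat cells and 358 in untreated cells (log2 ratio 0.22). BNIP3L, a mitophagy receptor, had a log2 ratio of -0.18 and BCL2L13 one of 0.14. The 5 under the floor on both arrays were the death blocker BCL2L10, the BH3-only genes BIK and HRK, BNIP3 and BOK.

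In the list of binding partners and outer membrane proteins, 16 of 17 genes were measured, with 1 at least 2-fold higher, 0 lower and a median of 0.02. MOAP1, which binds BAX and promotes its activation, had 1615 in vorinostat cells and 768 in untreated cells (2.10-fold higher). BAG3, a cochaperone and BCL2 partner, was 1.88-fold higher, with 1646 in vorinostat cells and 875 in untreated cells, and past 2-fold (a log2 ratio of 1.04) when the arrays were scaled to equal medians. BAG4 was at least 1.75-fold higher, its signal of 64.6 in untreated cells being under the floor, against 120.3 in vorinostat cells. BNIP1 was 1.79-fold lower, with 282 and 506. BCLAF1, a nuclear partner of BCL2 family proteins, had 1085 in vorinostat cells and 2077 in untreated cells on its brightest probe set (1.91-fold lower), while 3 of its 4 probe sets were at least 2-fold lower and the lowest log2 ratio was -1.95. BCLAF1 thus counts as within 2-fold by its brightest probe set alone, and its median of -1.31 is past it.

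Downstream of the mitochondria, 15 of 18 genes for released factors, the apoptosome, caspases and their inhibitors were measured, with 2 at least 2-fold lower, 1 higher and a median of -0.10. DFFB, the nuclease that cuts DNA in dying cells, had 108 in vorinostat cells and 285 in untreated cells (2.65-fold lower), on a single probe set with the suffix for shared sequence, and with a bound of -0.32 where the floor was set at the 60th percentile. DFFA, its inhibitor and chaperone, had 999.8 in vorinostat cells and 479.7 in untreated cells (2.08-fold higher), so the pair lay on opposite sides of 0. XIAP, which inhibits caspases, had 77.4 in vorinostat cells and 197 in untreated cells (2.55-fold lower), but its other probe set was bounded at -0.63 (log2 ratio) and the median of -0.99 is short of 2-fold. Of this list 0 genes were at least 2-fold lower under that higher floor, and 0 without shared-sequence probe sets. CASP9, the initiator caspase of the apoptosome, had 623 in vorinostat cells and 403 in untreated cells (1.55-fold higher). The inhibitor gene BIRC2 was 1.55-fold higher too, with 2307 in vorinostat cells and 1492 in untreated cells. CASP2 and CASP6 had log2 ratios of -0.50 and -0.50.

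**Figure D3:**
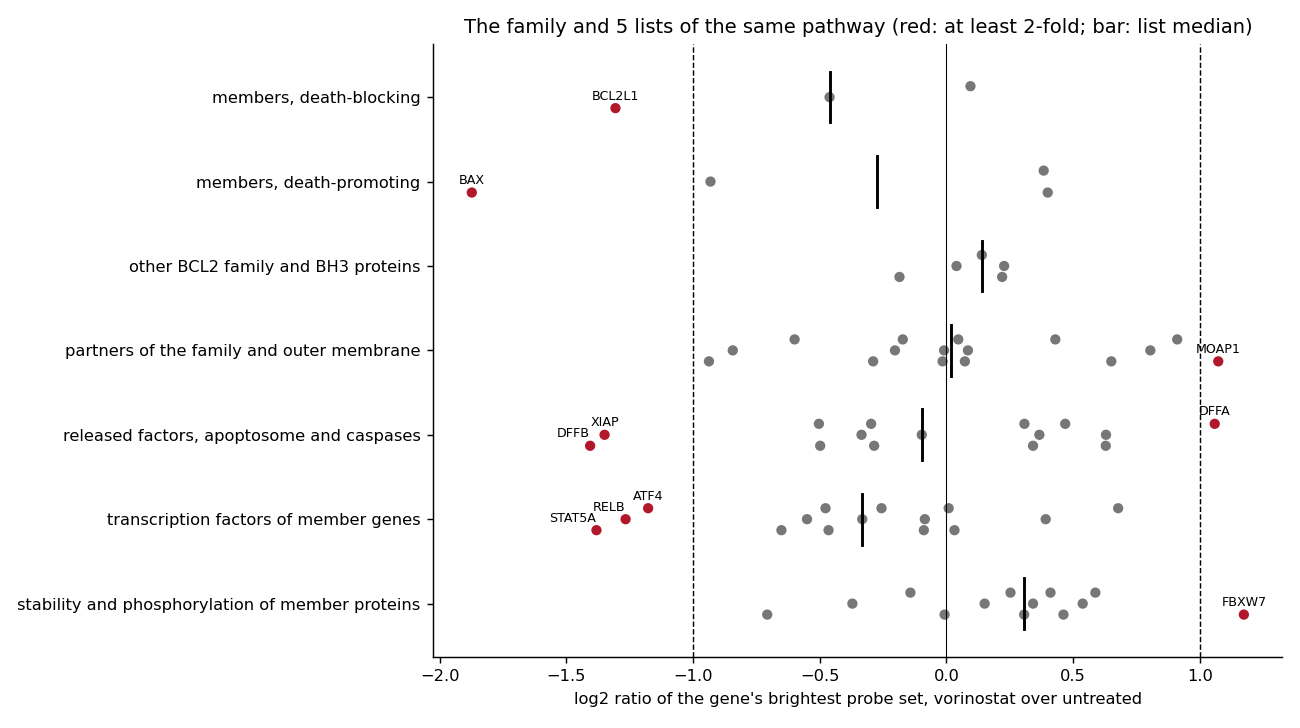
Log2 ratio, vorinostat over untreated, of each measured gene (1 point per gene, brightest probe set) in the 2 groups of members and in 5 lists of the same pathway; black bars are list medians, dashed lines mark 2-fold, and genes at least 2-fold apart are red and named. BAX has the lowest ratio shown (-1.87) and FBXW7 the highest (1.17).

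Of the list of transcription factors and regulators known to act on member genes, 15 of 18 were measured, with 3 at least 2-fold lower, 0 higher and a median of -0.33. STAT5A, which is known to drive BCL2L1 transcription downstream of cytokine receptors, had 587 in vorinostat cells and 1528 in untreated cells (2.61-fold lower). STAT5B, its close relative, was lower on each of 3 probe sets, with 1413 in vorinostat cells and 2070 in untreated cells on the brightest (1.46-fold lower). STAT3, also in this list, went the other way and was higher on both of its probe sets. The brighter had 9025 in vorinostat cells and 6875 in untreated cells (a log2 ratio of 0.39). RELB, an NF-kB subunit, had 221 in vorinostat cells and 532 in untreated cells (2.41-fold lower), whereas REL, another subunit known for BCL2L1 and BCL2A1 activation, had 209 and 131 (a log2 ratio of 0.68) on its 1 measured probe set. ATF4, a stress factor known to activate PMAIP1, had 2791 in vorinostat cells and 6311 in untreated cells (2.26-fold lower). PMAIP1 was higher, and whether any factor of this list took part in the ratios of the members was not tested. E2F1 was 1.57-fold and FOXO1 1.39-fold lower on the brightest probe set, and each was lower on both of its probe sets.

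Of the genes for protein turnover and phosphorylation of family members, 13 of 16 were measured, with 1 at least 2-fold higher, 0 lower and a median of 0.31. FBXW7, the substrate receptor of an ubiquitin ligase that marks MCL1 for degradation, had 840.5 in vorinostat cells and 372 in untreated cells (2.26-fold higher) on a single probe set with the suffix for shared sequence. SKP1, an adaptor of the same ligase, was higher on each of 4 probe sets, with 10277 in vorinostat cells and 7458 in untreated cells on the brightest (1.38-fold higher). CUL1, its scaffold, had 1275 in vorinostat cells and 2082 in untreated cells (1.63-fold lower). HUWE1, also in this list, was lower on each of 4 probe sets, 1 of them at least 2-fold lower. Its brightest had 27087 in vorinostat cells and 27220 in untreated cells (a log2 ratio of -0.01). The lowest log2 ratio of HUWE1 was -1.54 and the median over its probe sets -0.54. The stress kinase genes MAPK9 and MAPK8, whose products phosphorylate BCL2 and BCL2L11, had log2 ratios of 0.59 and 0.54.

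**Figure D4:**
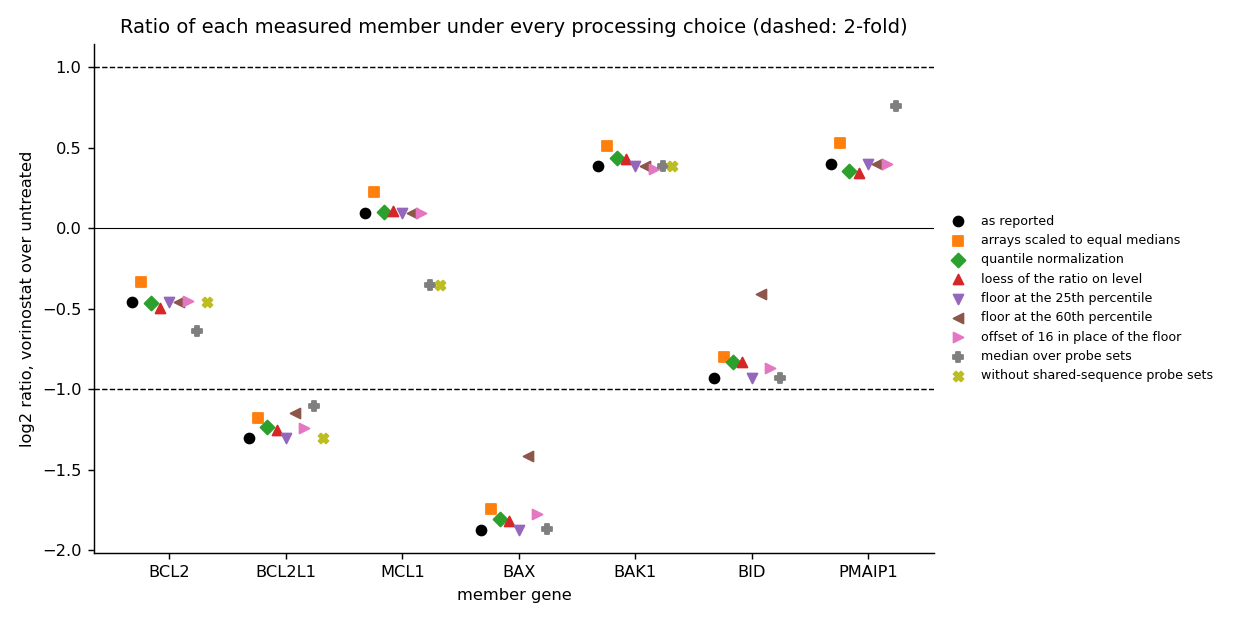
Log2 ratio, vorinostat over untreated, of the 7 measured members as reported (black) and under 8 other processing choices; dashed lines mark 2-fold, and a choice that left a gene unmeasured has no point. BCL2L1 stays between -1.31 and -1.11, BAX between -1.87 and -1.42, and MCL1 lies on both sides of 0. With the floor at the 60th percentile, the -1.42 of BAX, the -1.15 of BCL2L1 and the -0.41 of BID are bounds.

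At a 3-fold rule 1 member, BAX, was lower (0.93% of all measured genes), and at 1.5-fold BAX, BCL2L1 and BID were lower (15.5% of all) and 0 members were higher (12.7%). The place of the members relative to 2-fold was the same under each of the other choices that measured them. BCL2L1 was past 2-fold under all 8, from -1.31 to -1.11 in log2 ratio. BAX was past it under all 7 that measured it, from -1.87 to -1.42, and had no value once probe sets with the shared-sequence suffix were left out. BCL2 ranged from -0.64 to -0.33, BAK1 from 0.37 to 0.51, BID from -0.93 to -0.41 and PMAIP1 from 0.34 to 0.76. The -1.42 of BAX and the -0.41 of BID came with the floor at the 60th percentile, where BCL2L1 had -1.15. That floor lay above the signals of all these genes in vorinostat cells, so these values are bounds. MCL1 ranged from -0.35 to 0.22, and so changed sides of 0.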

How the data were processed

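Biotin-labelled RNA from 1 vorinostat-treated and 1 untreated L-540 culture was measured on 1 HG_U133A array each, and groups follow the treatment label. The authors deposited 1 linear intensity per probe set, which the submitters' processing notes credit to MAS5. Its version, its scaling target and any detection calls are not given in the sources used here. The deposited scaling was kept, since trimmed means (2% at each end) were equal. Symbols came from the platform annotation; the 146 probe sets of listed genes were all found in RefSeq, with 0 symbols changed. Probe sets with several symbols (1043) or none (2107) named no gene. The floor, the brightest probe set and the 2-fold rule are described in the results; the number of arrays, the spread between probe sets and the floor limit precision. Every member was named, and of each pathway list the genes at least 2-fold apart and up to 4 others with the largest ratios. HUWE1 and STAT3 were named in addition, for the direction of all their probe sets. The members, lists and alternatives were chosen with earlier results of these data known. The steps were tested on simulated data with planted changes larger than 2-fold in genes well above the floor. That test does not cover changes near 2-fold or signals near the floor. Python 3.11.15, pandas 2.3.3 and statsmodels 0.14.6 (lowess) were used.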

Additional observations from a re-analysis of the deposited data

How the results depend on the processing

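Results were recomputed with arrays scaled to equal medians, quantile normalization, loess, floors at the 25th and 60th percentile, an offset of 16, the median over probe sets, no shared-sequence probe sets, and thresholds of 1.5-fold and 3-fold; a log2 value counted as moved past the pooled SD between probe sets, and a count past 1.5 times. Without shared-sequence probe sets 4 members were measured, 1 of them at least 2-fold lower (BCL2L1), and the death-promoting median, 0.38, was that of BAK1 alone. Under the other choices the death-promoting median ranged from -0.27 to -0.01. It was -0.01 with either other floor, -0.04 with the offset and -0.14 with equal medians. At 3-fold 1 member was lower and at 1.5-fold 3 were. No value past 2-fold changed sign. Members at least 2-fold higher numbered 0 under each choice. The death-blocking median ranged from -0.64 to -0.18. The -0.18 came with the offset, where BCL2A1 entered the group, and under the other choices the median was -0.33 or lower. MCL1 was at -0.35 over all its probe sets and without shared-sequence ones. BCL2A1 had 0.81 with the offset alone, where its signals carry no order.

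Genes at least 2-fold lower numbered 424, against 689 with the floor at the 25th percentile, 251 at the 60th, 707 with the offset, 250 without shared-sequence probe sets, 1283 at 1.5-fold and 77 at 3-fold; those higher numbered 312, against 471 with the offset, 1051 at 1.5-fold and 45 at 3-fold. Of calls 42.4% were higher, against 58.8% with equal medians, which moved the median of all genes by 0.12. No paired analysis was possible because each group held 1 array. Leaving out a replicate was not possible for the same reason.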
